A study of Mus musculus with 2 samples.

Results

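The genes described here are 10 genes that fat tissue is known for: Lep, Adipoq, Retn, Rbp4, Nrg4, Apln, Agt, Nampt, Sncg and Adig. They were taken by name from a list of adipokines and hormones of fat, and their Entrez identifiers were looked up in the deposited tables, which together list 16174 genes. All 10 were found. All 10 also had at least 1 FPKM (fragments scaled to transcript length and library size) in a library, the limit that 11746 genes passed. The members were chosen by function with their FPKM in these libraries, and so their D3BKO to D3BWT ratios, already known, so the differences between the libraries are given as a description and no test is made on them. Sncg and Adig do not encode hormones, and Nampt encodes an enzyme that is also found outside cells, so the name adipokine fits only some of the 10.

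RNA was sequenced from brown adipose tissue, the fat depot that produces heat, of female C57BL/6 mice of 45 weeks that had been fed chow throughout. The D3BKO library came from D3Bfl/fl-UCP1-Cre+/- mice, in which both D3B alleles are floxed and the Ucp1 promoter, active in brown adipocytes, drives a Cre recombinase. The D3BWT library came from D3Bfl/fl mice, whose D3B alleles are floxed too and whose label names no Cre. There was 1 library per genotype, so the spread between mice cannot be estimated, and Cre, sequencer lane and loss of D3B cannot be told apart. The labels do not say how many mice went into a library. D3B is read here as Dnmt3b, a DNA methyltransferase that places methyl groups on cytosines of CG dinucleotides. The promoter of Ucp1 limits the deletion to cells that use it, and the other cells of the tissue keep the gene.

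The libraries held 10068359 expected counts (D3BKO) and 9666528 expected counts (D3BWT), where an expected count is the estimated number of reads of a gene. Dnmt3b itself was at 0.18 FPKM in the D3BKO library and 0.39 FPKM in the D3BWT library, on 7 and 15 counts, with a ratio of 0.462 (0.159 to 1.20). This check of the labels is weak at such counts. Ucp1, the heat-producing uncoupling protein, was at 4271 FPKM in the D3BKO library and 4987 FPKM in the D3BWT library. Every ratio below is FPKM in D3BKO over FPKM in D3BWT, followed by its 95% counting interval. That interval covers counting error only and takes each read as an independent molecule.

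Adipocytes act as endocrine cells. Leptin tells the brain how much fat is stored, adiponectin makes liver and muscle more sensitive to insulin, and resistin is linked in mice to poorer insulin action. Brown fat makes hormones of its own, among them neuregulin 4, and white fat is the main source of leptin in the body. Thermogenic brown adipocytes usually make little leptin.

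Because the deleted enzyme acts on CG dinucleotides, the start regions of 4 genes are shown: Lep and Sncg, the abundant genes that were higher in the D3BKO library, Adig, which was lower, and Adipoq, which was close to equal. Each run is the 300 bases from 250 before to 50 after the gene's start, read 5′ to 3′ on the gene's strand, from RefSeq on the build GRCm38.p6. Capitals mark the CG dinucleotides. DNA methylation was not measured in these libraries.
Lep, chr6:29059971-29060270, plus strand: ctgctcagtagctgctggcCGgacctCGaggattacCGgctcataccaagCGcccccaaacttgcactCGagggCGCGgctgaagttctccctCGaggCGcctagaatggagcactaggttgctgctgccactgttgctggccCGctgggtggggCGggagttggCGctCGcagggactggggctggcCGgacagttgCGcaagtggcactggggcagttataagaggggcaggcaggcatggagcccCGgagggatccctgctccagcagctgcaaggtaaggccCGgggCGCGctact
Sncg, chr14:34374620-34374919, minus strand: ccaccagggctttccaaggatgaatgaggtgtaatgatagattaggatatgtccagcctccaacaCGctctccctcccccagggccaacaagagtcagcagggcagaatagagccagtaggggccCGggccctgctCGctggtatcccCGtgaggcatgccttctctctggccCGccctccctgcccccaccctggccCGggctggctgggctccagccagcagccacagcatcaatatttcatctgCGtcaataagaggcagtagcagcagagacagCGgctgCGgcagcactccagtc
Adig, chr2:158502362-158502661, plus strand: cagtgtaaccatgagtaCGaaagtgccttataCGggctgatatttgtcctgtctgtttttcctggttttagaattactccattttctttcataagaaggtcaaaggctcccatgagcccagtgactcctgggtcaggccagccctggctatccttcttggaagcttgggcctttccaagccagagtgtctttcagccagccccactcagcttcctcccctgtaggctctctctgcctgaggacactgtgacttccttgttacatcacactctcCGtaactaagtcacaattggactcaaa
Adipoq, chr16:23146286-23146585, plus strand: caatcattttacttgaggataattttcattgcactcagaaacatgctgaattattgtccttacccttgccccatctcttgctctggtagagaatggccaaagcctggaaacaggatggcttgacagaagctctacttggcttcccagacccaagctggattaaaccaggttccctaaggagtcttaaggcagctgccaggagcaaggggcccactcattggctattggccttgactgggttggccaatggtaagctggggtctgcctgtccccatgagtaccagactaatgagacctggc

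The windows differ widely in CG content. Lep has 19 CG dinucleotides, Sncg 9, Adig 3 and Adipoq 0, beside a median of 7 over 32851 promoter windows of the same length. Of the other members, Agt has 1, Retn 2, Nrg4 13, Apln 15 and Nampt 36, and Rbp4 has 5 and 40 in its 2 windows. The genes higher in the D3BKO library thus span from 1 (Agt) to 19 (Lep), and those within 1.5-fold from 0 (Adipoq) to 40 (Rbp4). The letters of 4 motifs were searched on both strands. TTGCGCAA, a palindrome bound by C/EBP factors, occurs once, in Lep, 55 bases before the start, and in 0.183% of all windows. TATAA is also found in Lep, at 31 bases before the start on the gene's strand and, in overlapping letters, at 32 bases on the other strand. Agt has it at 30 bases, Rbp4 at 28 bases in 1 window and Adig at 223 bases on the other strand, and 24.9% of all windows hold it. GGGCGG, the GC box, lies 98 bases before the start of Lep and 78 bases before that of Sncg on the other strand, and it is also in Nampt, Rbp4 and Apln; 35.7% of all windows hold it. A tandem of 2 copies of AGGTCA with any 1 base between them, a repeat bound by PPAR factors, is in none of the 11 member windows and in 0.0396% of all windows. A match is a run of letters and not a shown binding site.

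The 10 genes covered a wide range of levels. Adipoq was the most abundant in each library, at 1104 FPKM in D3BKO and 1087 FPKM in D3BWT. Agt was the least abundant, at 2.92 FPKM in D3BKO and 1.43 FPKM in D3BWT. In the D3BKO library the order from high to low was Adipoq, Sncg, Adig, Lep, Rbp4, Retn, Nampt, Nrg4, Apln and Agt. In the D3BWT library it was Adipoq, Adig, Sncg, Rbp4, Retn, Lep, Nampt, Nrg4, Apln and Agt. Among neighbours in these orders, Rbp4 and Retn in D3BKO and Apln and Agt in each library had overlapping counting intervals, so their order is not settled. Lep stood at place 4 in D3BKO and place 6 in D3BWT, and Sncg and Adig changed places.

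**Figure D1:**
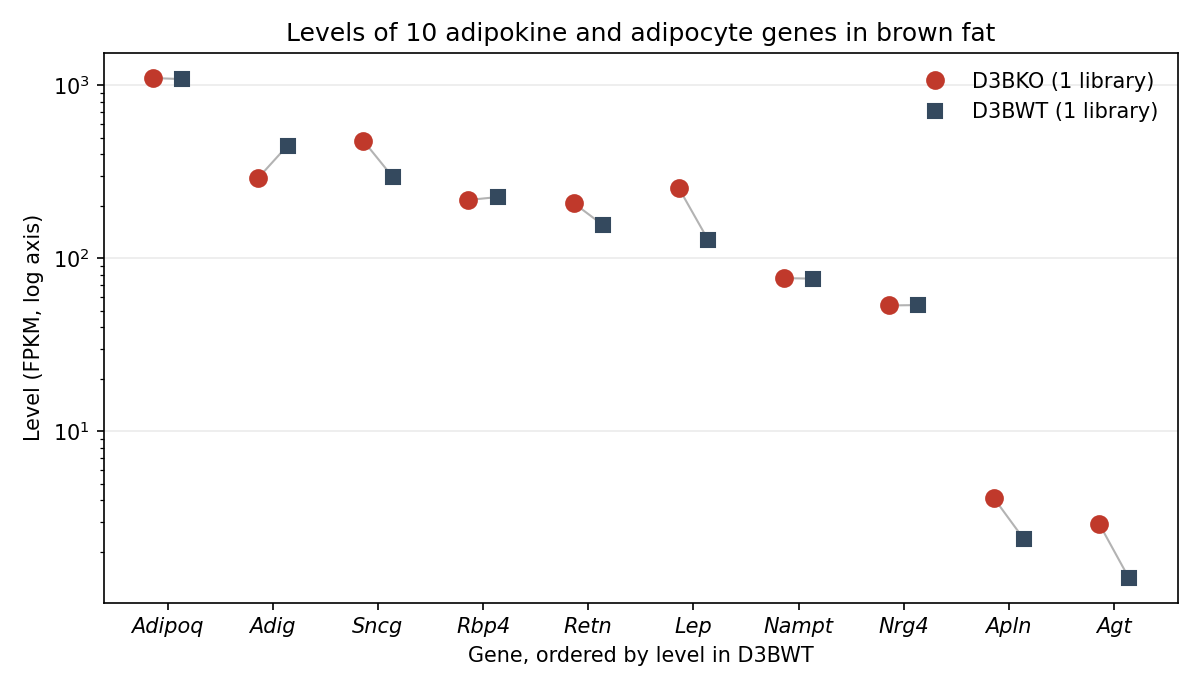
FPKM (log axis) of the 10 genes in the D3BKO library (circles, left) and the D3BWT library (squares, right), 1 library each, with a grey line joining the values of a gene. Adipoq is highest in both at about the same level (1104 and 1087 FPKM), Lep and Sncg sit higher in D3BKO and Adig sits lower.

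A gene was counted as higher or lower when its ratio after adding 1 FPKM to each value was at least 1.5-fold and its counting interval excluded 1. By this rule 4 of the 10 genes were higher in the D3BKO library (Lep, Sncg, Agt and Apln), beside 4.34% of all tested genes, and 1 was lower (Adig), beside 3.43% of all tested genes. The other 5 were within 1.5-fold. Over all tested genes 510 were higher and 403 lower, and with FPKM brought to equal totals in the libraries 677 were higher and 298 lower. No member reached 2-fold on this scale as deposited, as 0.902% of all tested genes did upward and 0.673% downward. Over the 10 members the median log2 ratio was 0.22, beside -0.03 over all tested genes. Since the members were chosen with these values known, nothing is read from these shares. Adipoq, Nampt, Nrg4 and Rbp4 had counting intervals that included 1.

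Leptin was the member with the largest log2 ratio. Lep (Entrez 16846) was at 256 FPKM in the D3BKO library and 128 FPKM in the D3BWT library, on 8264 and 3973 counts. The ratio was 2.0 (1.92 to 2.08), and with 1 FPKM added the log2 ratio was 0.99, just short of 2-fold. It passed 2-fold with the median log2 ratio of all tested genes set to 0 (1.02) and with equal FPKM totals (1.08). Of all tested genes 1.0% had a higher log2 ratio. Among the 832 genes whose mean level reached 100 FPKM, a limit chosen after the values were seen, Lep stood at place 6 from the top.

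Adiponectin did not follow leptin. Adipoq (11450) was at 1104 FPKM in D3BKO and 1087 FPKM in D3BWT, on 13116 and 12409 counts, a ratio of 1.02 (0.991 to 1.04). The quotient of Lep to Adipoq, which does not depend on how the libraries were scaled, was 0.231 in D3BKO and 0.118 in D3BWT. The first is 1.97 times the second (1.88 to 2.06).

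Resistin was higher by less than 1.5-fold. Retn (57264) was at 209 FPKM in D3BKO and 156 FPKM in D3BWT, on 1169 and 839 counts. Its ratio was 1.34 (1.23 to 1.47). With the trend of ratios with transcript length removed it passed 1.5-fold, with a log2 ratio of 0.61. Its counting interval excludes 1, and its quotient to Adipoq was 0.189 in D3BKO and 0.143 in D3BWT. Rbp4 (19662), the plasma carrier of retinol, made by liver and fat, was at 218 FPKM in D3BKO and 226 FPKM in D3BWT, a ratio of 0.962 (0.903 to 1.02). Lep, Retn and Rbp4 were all abundant in this tissue. Their ratios differed from each other by more than their counting intervals.

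Neuregulin 4 and the NAD-making enzyme were close to equal as deposited. Nrg4 (83961), a growth factor that brown fat releases and that acts on ErbB receptors, was at 53.5 FPKM in D3BKO and 53.8 FPKM in D3BWT, a ratio of 0.995 (0.911 to 1.09). Nampt (59027), the rate-limiting enzyme of NAD salvage, was at 77.0 FPKM in D3BKO and 76.4 FPKM in D3BWT, a ratio of 1.01 (0.960 to 1.06).

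The peptide precursors were expressed at a low level and were higher in the D3BKO library. Apln (30878), which encodes the vasoactive peptide apelin, was at 4.10 FPKM in D3BKO and 2.40 FPKM in D3BWT, on 128 and 72 counts, a ratio of 1.71 (1.27 to 2.31). With 1 FPKM added its fold was exactly 1.5, so it lies on the limit of the rule. Agt (11606), the precursor of the angiotensins and mainly a liver product, was at 2.92 FPKM in D3BKO and 1.43 FPKM in D3BWT. Its ratio of 2.04 (1.25 to 3.43) rests on 53 and 25 counts and is the least precise of the 10. Apln and Agt were no longer counted when 5 FPKM was added in place of 1.

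The members that are adipocyte proteins rather than hormones differed in opposite directions. Sncg (20618), which encodes gamma-synuclein, a cytosolic protein of neurons and adipocytes, was at 480 FPKM in D3BKO and 296 FPKM in D3BWT, on 3390 and 2010 counts. Its ratio was 1.62 (1.53 to 1.71), and 3.11% of tested genes had a higher log2 ratio. Adig (246747), which encodes adipogenin, a small membrane protein of adipocytes, was at 292 FPKM in D3BKO and 449 FPKM in D3BWT, on 1790 and 2653 counts. Its ratio was 0.649 (0.611 to 0.689), and 3.18% of tested genes had a lower log2 ratio.

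The call on Adig depended on scaling. With FPKM brought to equal totals in the libraries its log2 ratio was -0.53, and with the trend of ratios with transcript length removed it was -0.45, both within 1.5-fold, against -0.62 as deposited. At 665 bases its transcript is short, and the quotient of Adig to Adipoq, free of library scaling but not of length, was 0.264 in D3BKO and 0.413 in D3BWT. The first is 0.639 of the second (0.598 to 0.681). The quotient of Lep to Adig was 0.877 in D3BKO and 0.285 in D3BWT.

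**Figure D2:**
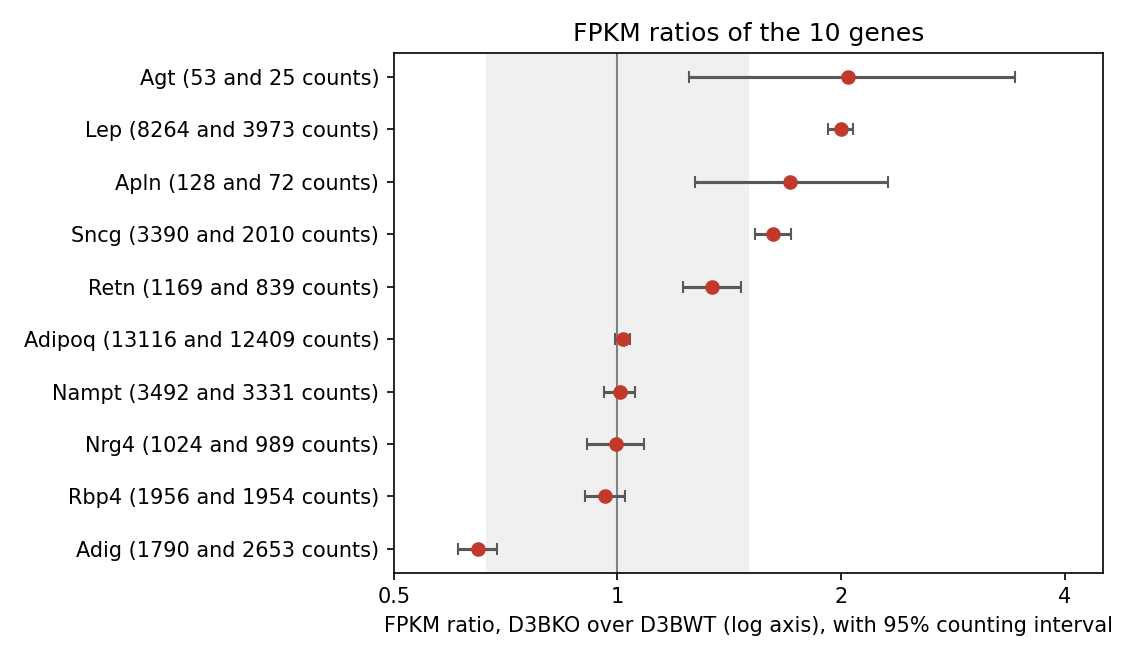
FPKM ratio of D3BKO over D3BWT (log axis) for each gene, with 95% counting intervals as bars and the range within 1.5-fold shaded. The counts beside each name are those of D3BKO and then D3BWT. Lep and Sncg combine a ratio above 1.5 with a narrow interval, Agt and Apln have wide intervals, and Adig is the single gene whose ratio lies below the shaded range.

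**Figure D3:**
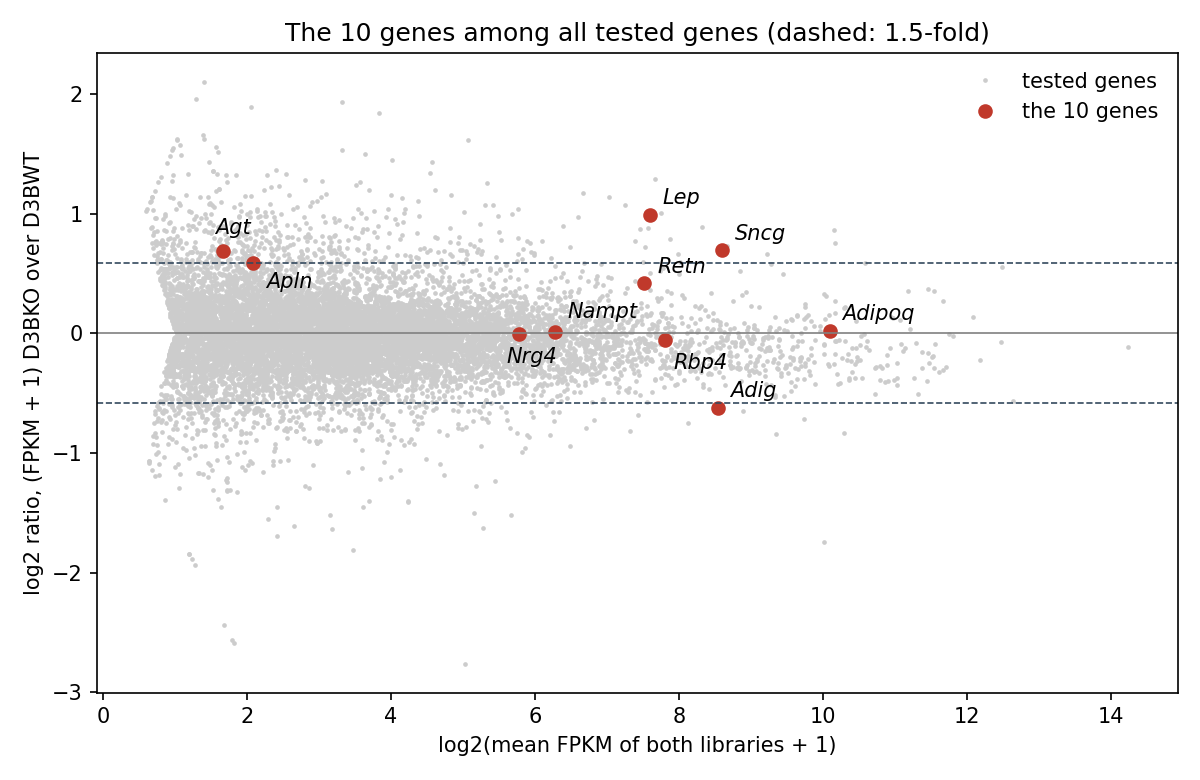
Log2 ratio of D3BKO over D3BWT, with 1 FPKM added, against the log2 mean level, for all 11746 tested genes (grey) and the 10 genes (red), with 1.5-fold as dashed lines. Lep and Sncg lie near the upper edge and Adig near the lower edge of genes of like level, while Agt and Apln lie where the ratios of all genes spread more widely.

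Receptors and binding partners of the members were compared next, from a list of 20 genes of which 12 were tested. The list counted 1 gene higher and 1 lower, beside 4.34% and 3.43% of all tested genes, and its median log2 ratio was 0.00. The gene counted as lower was Aplnr, the receptor of apelin, at 1.49 FPKM in D3BKO and 6.30 FPKM in D3BWT, on 53 and 215 counts. Its ratio was 0.237 (0.172 to 0.321), so apelin and its receptor differed in opposite directions. Aplnr is known as an endothelial gene. Of 10 endothelial markers 4 were lower in D3BKO and none was higher by the rule, and their summed level was 177 FPKM in D3BKO and 252 FPKM in D3BWT. These 4 were Cldn5 with a ratio of 0.495 (0.444 to 0.552), Emcn with 0.558 (0.466 to 0.666), Kdr with 0.639 (0.584 to 0.699) and Tie1 with 0.638 (0.571 to 0.712), while Pecam1 had 0.939 (0.868 to 1.01). Other endothelial markers went the other way without being counted, Robo4 with 1.52 (1.31 to 1.77) and Vwf with 1.20 (1.01 to 1.42). Their part in the lower Aplnr was not tested. In bulk tissue, fewer cells of a type and less RNA per cell cannot be told apart.

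The adiponectin receptors were close to equal in the libraries. Adipor1 was at 89.8 FPKM in D3BKO and 92.4 FPKM in D3BWT, a ratio of 0.972 (0.910 to 1.04), and Adipor2 was at 206 FPKM in D3BKO and 219 FPKM in D3BWT, a ratio of 0.942 (0.913 to 0.971). Cdh13, the T-cadherin that binds adiponectin at the cell surface, was at 7.36 FPKM in D3BKO and 4.61 FPKM in D3BWT, a ratio of 1.60 (1.24 to 2.07). With 1 FPKM added it fell short of 1.5-fold. The leptin receptor Lepr was at 1.04 FPKM in D3BKO and 1.01 FPKM in D3BWT, and its reads were in part shared with other genes.

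Receptors for neuregulin 4 were below 1 FPKM and so outside the tested genes. Erbb3 was at 0.35 FPKM in D3BKO and 0.75 FPKM in D3BWT, on 14 and 29 counts, a ratio of 0.467 (0.228 to 0.912). Erbb4 was at 0.14 FPKM in D3BKO and 0.32 FPKM in D3BWT, on 6 and 13 counts, and its interval of 0.136 to 1.23 included 1. The list's gene counted as higher was the EGF receptor Egfr, at 3.68 FPKM in D3BKO and 1.67 FPKM in D3BWT, a ratio of 2.20 (1.69 to 2.90). Cap1, a cytoskeletal protein described as a resistin receptor in humans, was at 50.8 FPKM in D3BKO and 35.5 FPKM in D3BWT, a ratio of 1.43 (1.31 to 1.56). Bscl2, the lipid droplet protein seipin, was at 123 FPKM in D3BKO and 133 FPKM in D3BWT.

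**Figure D4:**
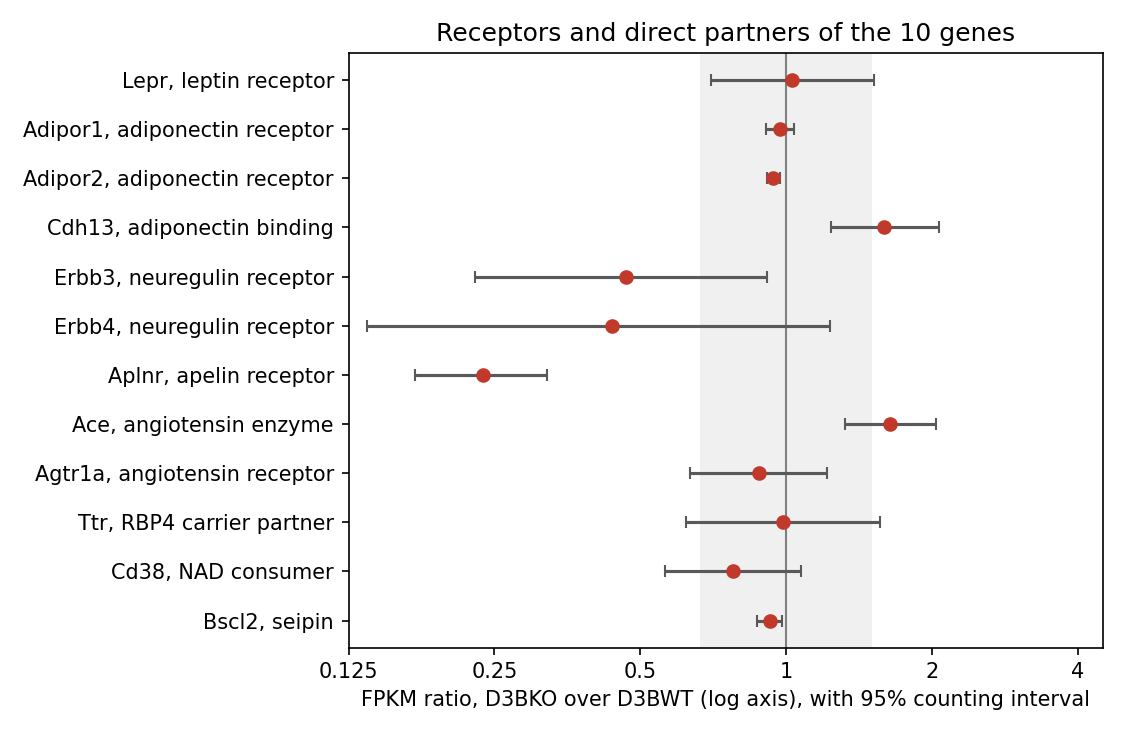
FPKM ratio of D3BKO over D3BWT (log axis) for 12 receptors and direct partners of the 10 genes, with 95% counting intervals as bars and the range within 1.5-fold shaded. Aplnr stands lowest at 0.237, and the adiponectin receptors lie close to 1.

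For angiotensinogen, the enzymes and receptor of the pathway were only in part detected. Renin (Ren1) was listed in neither library, so a count of 0 stands against a floor of 3 counts, which is 0.298 CPM, counts scaled by library size, in D3BKO and 0.310 CPM in D3BWT. Ace, the angiotensin-converting enzyme, was at 5.28 FPKM in D3BKO and 3.22 FPKM in D3BWT, a ratio of 1.64 (1.32 to 2.04), which is below 1.5-fold with 1 FPKM added. Agtr1a, an angiotensin receptor, was at 3.33 FPKM in D3BKO and 3.79 FPKM in D3BWT, a ratio of 0.879 (0.634 to 1.22). Of 18 tested genes that process or assemble the members, 1 was counted as higher and none as lower, likewise near the shares over all tested genes. It was the aminopeptidase Anpep, with a ratio of 1.66 (1.32 to 2.10), while Gstk1, which aids adiponectin assembly, had 0.809 (0.737 to 0.889) and the protease Furin 0.815 (0.739 to 0.898).

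Around Rbp4, which was itself within 1.5-fold, 2 of 17 tested genes of retinoid handling were higher and 1 was lower, beside 4.34% and 3.43% of all tested genes. Rbp7, a retinoid-binding protein of the cytosol, was at 108 FPKM in D3BKO and 57.4 FPKM in D3BWT, a ratio of 1.88 (1.64 to 2.17). Aldh1a1, which makes retinoic acid, was at 17.4 FPKM in D3BKO and 8.87 FPKM in D3BWT, a ratio of 1.97 (1.63 to 2.38). Rdh10, which oxidises retinol to retinaldehyde, was lower, at 2.48 FPKM in D3BKO and 5.89 FPKM in D3BWT, a ratio of 0.421 (0.302 to 0.581). Aldh1a7 had a ratio of 1.48 (1.38 to 1.60). Ttr, the plasma partner of the retinol carrier, was at 3.44 FPKM in D3BKO and 3.49 FPKM in D3BWT, and the membrane receptor Stra6 was listed in neither library.

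Around Nampt, 1 of 16 tested genes of NAD salvage and use was higher and none was lower, a share near the 4.34% and 3.43% over all tested genes. Bst1, an NAD-consuming surface enzyme, was at 1.0 FPKM in D3BKO and 0.27 FPKM in D3BWT, on 23 and 6 counts, a ratio of 3.70 (1.47 to 11.1). Nmnat1, which completes NAD synthesis in the nucleus, had a ratio of 0.668 (0.489 to 0.910) and Nadsyn1 0.760 (0.594 to 0.971). Aox1, an oxidase that uses a methylated nicotinamide among its substrates, had 1.36 (1.25 to 1.49), and Cd38, a major NAD consumer, 0.779 (0.563 to 1.07).

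Among 14 genes that relay leptin and adiponectin signals, none was higher and 2 were lower, beside 4.34% and 3.43% of all tested genes. These 2 were the insulin receptor substrates Irs1 and Irs2. Jak2 and Stat3, which carry the leptin signal, each had a ratio of 1.27, with intervals of 1.06 to 1.53 for Jak2 and 1.14 to 1.40 for Stat3. Stk11, the kinase that activates AMPK, had 0.756 (0.697 to 0.819). Of 21 tested transcription factors known to act on adipokine genes, none was counted in either direction, beside the same shares of all tested genes. Foxo1 had the largest log2 ratio among them, with a ratio of 1.44 (1.32 to 1.58), followed by Klf9 with 1.29 (1.16 to 1.42) and Cebpd with 1.31 (1.03 to 1.68). Cebpa, of the family that binds the palindrome found in Lep and chosen after its value was seen, was at 278 FPKM in D3BKO and 340 FPKM in D3BWT, a ratio of 0.818 (0.793 to 0.844), and Ebf2 had 0.776 (0.690 to 0.873).

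Relatives of the members did not all differ as the members did. Of 10 tested relatives 1 was higher and 1 was lower, beside 4.34% and 3.43% of all tested genes. Retnla, the resistin-like product of macrophages, was at 287 FPKM in D3BKO and 117 FPKM in D3BWT, beside a ratio of 1.34 for Retn. C1qtnf2, of the adiponectin-related family, was at 1.37 FPKM in D3BKO and 2.68 FPKM in D3BWT, a ratio of 0.511 (0.260 to 0.968). C1qtnf12 had 0.673 (0.616 to 0.736) and C1qtnf6 1.63 (1.18 to 2.27).

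A wider list of other factors that fat secretes differed in both directions. Of its 37 tested genes 12 were higher and 6 were lower, beside 4.34% and 3.43% of all tested genes, and the median log2 ratio was 0.33. The 12 include Npr3, a membrane receptor and not a secreted factor, with a ratio of 1.60 (1.53 to 1.67). Npr3 is also in the list of white adipocyte genes given below. Cfd, which encodes adipsin, was at 473 FPKM in D3BKO and 1591 FPKM in D3BWT. Fndc5, the precursor of irisin, was at 1.86 FPKM in D3BKO and 6.81 FPKM in D3BWT, a ratio of 0.273 (0.195 to 0.376), and the growth factor Igf2 was also lower. Il18, an inflammatory cytokine, was at 2.08 FPKM in D3BKO and 0.38 FPKM in D3BWT, on 17 and 3 counts, a ratio of 5.47 (1.58 to 29.2). The abundant members Rarres2 and Apoe, chosen after their values were seen, went opposite ways. Rarres2, which encodes chemerin, was at 297 FPKM in D3BKO and 171 FPKM in D3BWT, a ratio of 1.74 (1.61 to 1.87), and Apoe was at 647 FPKM in D3BKO and 1060 FPKM in D3BWT, a ratio of 0.610 (0.593 to 0.627).

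Markers of fat cells were set beside the members, and their counts may be read beside the 4.34% higher and 3.43% lower over all tested genes. General adipocyte genes were near equal: none of 15 was counted in either direction, and the median log2 ratio was -0.06. Their summed level was 26702 FPKM in D3BKO and 28567 FPKM in D3BWT. Most of it was Fabp4, at 18614 FPKM in D3BKO and 20164 FPKM in D3BWT, a ratio of 0.923 (0.916 to 0.931). By absolute log2 ratio the largest difference was in Adrb3, the beta-3 adrenergic receptor, with a ratio of 0.747 (0.713 to 0.782). Of 9 tested genes associated with white adipocytes 6 were higher and none was lower, with a summed level of 563 FPKM in D3BKO and 271 FPKM in D3BWT over the list of 14. Mest, Dpt, Nnat and Slc7a10 led this list, and Hoxc9, Hoxc10, Tcf21 and Wt1 were listed in neither library. Hoxc8, with a ratio of 0.886 (0.613 to 1.28), and Igfbp3, with 0.976 (0.757 to 1.26), were the 2 tested genes with a log2 ratio below 0. The largest parts of the summed level were Nnat, at 206 FPKM in D3BKO and 97.1 FPKM in D3BWT, and Dpt, at 179 and 80.7 FPKM. The cells that expressed the genes of this list were not identified. Of 15 brown adipocyte genes 3 were lower (Eva1a, on 20 and 59 counts, Zic1, on 33 and 70 counts, and Dio2) and 1 was higher (Elovl3). A log2 ratio above 0 was found in 2 of the 15, and 13 were below 0. Their summed level was 15846 FPKM in D3BKO and 19913 FPKM in D3BWT. Its largest parts were Cox8b, at 5132 FPKM in D3BKO and 7608 FPKM in D3BWT, and Ucp1, at 4271 and 4987 FPKM, neither counted by the rule. The part of these cell markers in the levels of Lep, Sncg and Adig was not tested.

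Markers of other cells were also measured, again beside 4.34% higher and 3.43% lower over all tested genes. Of 9 tested macrophage genes 7 were higher and none was lower. The largest log2 ratios were those of Mertk, with a ratio of 2.57 (1.82 to 3.69), and Cd68, with 1.97 (1.54 to 2.53). The list summed to 380 FPKM in D3BKO and 235 FPKM in D3BWT. Most of that sum was Lyz2, at 309 FPKM in D3BKO and 194 FPKM in D3BWT, and its reads were in part shared with other genes. Of 10 fibroblast and preadipocyte genes 4 were higher and none was lower. The 4 were the matrix genes Fbn1, Col1a1, Col1a2 and Col3a1. The ratios of the others ran from 0.993 (0.862 to 1.14) for Pi16 to 1.27 (1.05 to 1.52) for Pdgfra. Neutrophil markers summed to 13.7 FPKM in D3BKO and 5.67 FPKM in D3BWT, with Ly6g, Camp and Ngp listed in neither library. Of 2 tested 1 was higher, S100a8, on 33 and 13 counts. The other, S100a9, rests on 14 and 6 counts, and its interval of 0.813 to 7.15 included 1. Smooth muscle and pericyte genes summed to 161 FPKM in D3BKO and 156 FPKM in D3BWT, with 1 of 7 tested counted as higher, Acta2, and none as lower. Of these 7, 4 had a log2 ratio above 0 and 3 below it. The 3 below were Kcnj8 with a ratio of 0.664 (0.571 to 0.772), Des with 0.691 (0.620 to 0.769) and Pdgfrb with 0.728 (0.636 to 0.832). The part of all these cell markers in the members' levels was not tested.

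Markers of liver, nerve, muscle, mesothelium and blood follow, with their counts beside 4.34% higher and 3.43% lower over all tested genes. Agt and Rbp4 are also expressed by liver. Hepatocyte markers summed to 37.3 FPKM in D3BKO and 47.7 FPKM in D3BWT. Of 6 tested 2 were lower, Alb with a ratio of 0.600 (0.503 to 0.716) and Ahsg with 0.458 (0.284 to 0.724). Of these 6, 2 had a log2 ratio above 0 and 4 below it. The 2 above were Apoa2, at 16.01 FPKM in D3BKO and 15.09 FPKM in D3BWT, and Serpina1a, at 2.01 and 1.86 FPKM. The counting intervals of Apoa2, Serpina1a, Apoa1 and Ttr included 1. The part of hepatocyte markers in the levels of Agt and Rbp4 was not tested. Sncg is also expressed by neurons. Of 4 tested Schwann cell and nerve genes 1 was higher, Uchl1, at 3.24 FPKM in D3BKO and 0.84 FPKM in D3BWT, and Th, Dbh and Prph were listed in neither library. The part of nerve in the level of Sncg was not tested. Skeletal muscle markers summed to 3.20 FPKM in D3BKO and 3.14 FPKM in D3BWT. The 1 gene tested, Acta1, was counted as higher, at 2.71 FPKM in D3BKO and 1.38 FPKM in D3BWT. Below the limit, Tnni2, Mylpf, Tnnt3, Myh1, Myh2 and Myh4 were lower in D3BKO and Actn3 was higher, each on at most 5 counts. Mesothelial markers summed to 0.41 FPKM in D3BKO and 0.92 FPKM in D3BWT, with Msln and Upk3b listed in neither. Erythroid genes summed to 7413 FPKM in D3BKO and 7563 FPKM in D3BWT, and none of 4 tested was counted.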

How the data were processed

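Polyadenylated RNA of brown adipose tissue was sequenced in 2 libraries, 1 per genotype; the label protocols do not mention strand. The authors deposited, per the file headers, an FPKM value, an expected count and a transcript length for each gene under its Entrez identifier. RSEM and the build mm9 come from the submitters' processing notes, and no source used here names the aligner. Expected counts are estimates that divide reads matching several genes. All 10 members had whole counts, within a tolerance of 0.05. The deposited FPKM values are scaled to library size and have 2 decimals; they summed to 571034 (D3BKO) and 606888 (D3BWT).

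A gene missing from a library counted as 0. Symbols were taken from RefSeq on GRCm38.p6, which matched 16134 of 16174 genes. This differs from mm9, so coordinates are given only for the printed promoter sequences, for which all 10 members matched.

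With 1 library per group no test was made and no p-value is given. Genes that reached 1 FPKM in a library were compared as log2((FPKM + 1) in D3BKO / (FPKM + 1) in D3BWT). A gene was counted at 1.5-fold or more when the exact conditional Clopper-Pearson 95% interval of the ratio, from rounded expected counts, excluded 1. Exact Poisson intervals of the levels and exact intervals of quotients were used likewise. On simulated counts the rule found 98.0% of genes changed 2.5-fold upward (50 simulated) and 95.9% of those changed to 0.4 (49 simulated), and called 0.273% of 11337 unchanged genes. The simulated counts held counting error only, with no spread between mice or preparations, so these shares are not error rates for the 2 libraries. Changes between 1.5-fold and 2.5-fold, where the counted members lie, were not simulated.

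The members and the gene lists were chosen with earlier results of these data known. Named are all 10 members, their direct receptors and partners, and from each list up to 4 genes, by absolute log2 ratio, plus genes marked as chosen later. Other genes named are remaining members counted by the rule, or listed in neither library, or direct counterparts of a member, or markers not counted. All of these were chosen after their values were seen. For a few lists fewer are named. A member of the relatives list is not reported here. Alternatives were 11 settings of pseudocount, filter, unit, scaling, length trend (lowess) and call rule. Python 3.11.15, scipy 1.17.1 and statsmodels 0.14.6 were used.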

Additional observations from a re-analysis of the deposited data

How the results depend on the processing

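Of the 10 members, Lep and Sncg were counted as higher under every alternative at 1.5-fold, with log2 ratios of 0.97 to 1.08 for Lep and 0.69 to 0.86 for Sncg. Adig kept a negative log2 ratio under all of them, -0.62 to -0.45, but left the count when FPKM was brought to equal totals (-0.53), also when those totals omitted the 20 most abundant genes (-0.53), and when the trend with transcript length was removed (-0.45), which left 0 members lower in each case. Removing that trend brought Retn past 1.5-fold (0.61), for 5 members higher. A pseudocount of 5 left 2 members higher, since Apln and Agt came to 0.30 each. A mean of at least 5 FPKM also left 2 members higher, because Apln and Agt are not tested there. At 2-fold with the deposited scaling 0 members were higher and 0 lower, and the log2 ratio of Lep passed 1 under each rescaling and with the length trend removed. The median log2 ratio of the members, 0.22, was 0.016 with a mean of at least 5 FPKM and 0.36 with the length trend removed. Rbp4, Nrg4 and Nampt changed sign around 0 under some scalings (3, 4 and 1 of 9 settings) and were never counted.

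Counts over all tested genes, 510 higher and 403 lower, were 136 and 107 with a pseudocount of 5, 221 and 191 with a mean of at least 5 FPKM, 831 and 678 in CPM, and 106 and 79 at 2-fold; with a pseudocount of 0.1, 748 were higher and 623 lower. With equal FPKM totals 677 were higher and 298 lower, and with the 20 most abundant genes omitted 683 and 297. Equal totals moved the median log2 ratio of tested genes to 0.05, from -0.03 as deposited. The causes were not tested. No paired analysis was possible because each genotype has 1 library. Depth limits Agt and Apln most, at 25 to 128 counts.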
